A study of Mus musculus with 11 samples.

Results

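The genes described here are 9 markers of neuroblasts of the subventricular zone, Dcx, Dlx1, Dlx2, Dlx5, Sox4, Sox11, Cd24a, Igfbpl1 and Sp8. They were taken by symbol from a fixed set of names, matched to Ensembl identifiers of GENCODE M21, and all 9 were among the 52550 genes of the count table. All 9 also lay among the 15373 genes kept for testing, which needed 1 CPM (counts scaled to library size) in 3 libraries and 10 counts in the median library.

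The table holds 11 poly(A) RNA libraries, 1 per mouse, from tissue punched out of the shell of the nucleus accumbens. The mice were 8 weeks old, and their background was mixed, CBA/C57BL6J/129svEmx. The question of the series was how reduced signalling through Rarβ, a retinoic acid receptor, alters transcription in the presence of a mutation that causes Huntington disease, carried by R6/1 mice as a transgenic fragment of the human huntingtin gene. The design names 12 samples, of which 1, R6/1 0/0 with Rarβ+/+, was excluded after quality control. The labels give the other libraries an animal code, such as m115, a library code, such as NSZR1, and no genotype, so no groups were compared. What the library codes stand for is not labelled. Every difference below is between libraries whose genotypes cannot be told apart from animal, dissection and library differences. Library totals ran from 24840981 to 48825783 counts with a median of 36252983. Of 14 genes of striatal projection neurons, the main cells of the labelled tissue, all passed the filter, with a summed level of 2929 to 6977 CPM. Slc17a7, a transporter gene of cortical excitatory neurons, was present at 636 to 2118 CPM.

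The subventricular zone is a germinal layer along the lateral ventricle, next to the striatum. Its stem cells give rise to dividing progenitors and then to neuroblasts, which migrate along the rostral migratory stream past the accumbens to the olfactory bulb and become interneurons. Dcx encodes doublecortin, a microtubule-binding protein of migrating neurons, and Cd24a a small surface glycoprotein found on neuroblasts and ependymal cells. Dlx1, Dlx2 and Dlx5 encode homeodomain transcription factors of GABAergic forebrain lineages, some of which stay on in mature interneurons. Sox4 and Sox11 encode SoxC transcription factors of newborn neurons, Sp8 encodes a zinc finger factor needed for olfactory bulb interneurons, and Igfbpl1 encodes a secreted protein related to the insulin-like growth factor binding proteins.

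The Sox and Dlx members belong to gene families, and their most alike stretches are shown because counting can mix near-identical copies. Each line holds 120 bases of coding sequence (GENCODE M21, GRCm38), with capitals where a base differs from the first line of its family. Sox4 (chr13:28952734-28952853, minus strand) and Sox11 (chr12:27342151-27342270, minus strand) are genes of 1 exon each, and the stretch codes for part of the DNA-binding HMG box.
Sox4: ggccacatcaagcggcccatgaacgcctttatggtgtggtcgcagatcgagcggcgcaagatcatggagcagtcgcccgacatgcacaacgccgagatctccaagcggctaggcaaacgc
Sox11: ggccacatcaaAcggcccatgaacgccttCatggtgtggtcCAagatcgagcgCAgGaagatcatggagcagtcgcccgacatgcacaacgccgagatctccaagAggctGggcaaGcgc
The stretches were identical at 110 of 120 bases (91.7%), with an unbroken run of 48 identical bases. For the Dlx genes the stretch codes for part of the homeodomain and crosses the junction of exons 2 and 3, at chr2:71531082-71532308 (plus strand) for Dlx1, chr2:71544880-71545458 (minus strand) for Dlx2 and chr6:6878444-6879600 (minus strand) for Dlx5.
Dlx1: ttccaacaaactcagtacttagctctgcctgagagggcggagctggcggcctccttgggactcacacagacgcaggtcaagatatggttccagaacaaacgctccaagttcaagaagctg
Dlx2: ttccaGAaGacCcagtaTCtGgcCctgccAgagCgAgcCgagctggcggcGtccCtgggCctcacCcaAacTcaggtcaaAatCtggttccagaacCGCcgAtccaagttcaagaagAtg
Dlx5: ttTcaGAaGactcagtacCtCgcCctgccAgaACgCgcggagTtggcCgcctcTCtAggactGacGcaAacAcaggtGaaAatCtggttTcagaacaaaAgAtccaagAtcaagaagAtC
Dlx2 was identical to Dlx1 at 95 of 120 bases (79.2%) and Dlx5 at 91 (75.8%), with longest identical runs of 15 and 9 bases. No stretch of 50 bases in the transcripts of Dlx2, Dlx5, Sox11, Igfbpl1 or Sp8 was found in the transcripts of another gene, and 0.204% of such stretches were shared for Dcx and 2.75% for Cd24a. For Sox4 54.1% and for Dlx1 5.19% of stretches were shared, in both cases with a transcript on the opposite strand. Gm26735, opposite Sox4, held 3 to 23 counts per library, at most 1.54% of the count of Sox4. Dlx1as, the antisense gene of Dlx1, held 10 to 164 counts, at most 11.8% of the count of Dlx1. The library kit marks strand, but no source used here states whether the counting used it, or how reads in exon shared by both strands were then counted. Sox4 shares 2616 of its 4795 exonic bases with Gm26735, and Dlx1 335 of 5396 with Dlx1as. The levels of Sox4 and Dlx1 are therefore uncertain, and the antisense counts do not bound by how much.

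Promoters were available for 6 of the 9 members from RefSeq (GRCm38.p6). Those of Dlx2 and Sox11, a pair of genes whose levels went together closely, are shown for the 250 bases before the start, which hold no annotated exon. Capitals mark letter matches on either strand to 7 short motifs, none of which overlap here. These were GGGCGG, the GC box (found in 32.7% of 32851 promoters of the same length), CCAAT (33.8%), TATAAA (12.4%), TAATTA, a homeodomain core (4.84%), CAGCTG, an E-box (13.0%), TTTGAA, a part of cell-cycle elements (16.0%), and ACAAT, a SOX core (27.7%).
Dlx2 (chr2:71546755-71547004, minus strand): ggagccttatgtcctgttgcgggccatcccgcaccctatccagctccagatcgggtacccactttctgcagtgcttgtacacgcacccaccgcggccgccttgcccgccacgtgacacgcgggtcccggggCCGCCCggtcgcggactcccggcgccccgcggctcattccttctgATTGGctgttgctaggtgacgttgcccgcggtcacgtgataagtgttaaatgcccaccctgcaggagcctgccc
Sox11 (chr12:27342719-27342968, minus strand): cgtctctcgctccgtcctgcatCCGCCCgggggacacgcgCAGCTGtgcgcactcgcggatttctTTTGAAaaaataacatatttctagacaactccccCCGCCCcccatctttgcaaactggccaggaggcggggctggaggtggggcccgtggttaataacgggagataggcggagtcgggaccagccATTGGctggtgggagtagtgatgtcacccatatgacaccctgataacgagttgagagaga
The Dlx2 window held 1 GC box and 1 CCAAT box at 66.4% GC. The Sox11 window held 2 GC boxes, 1 CCAAT box, 1 E-box and 1 TTTGAA at 58.0% GC, against a median of 52.4% GC over all promoters. The Sox4 promoter held 4 CCAAT boxes and 1 E-box. The Dlx1 window, at 68.0% GC and all of it annotated exon, held none of the 7 motifs. The first Dcx window held 1 CCAAT box, 1 TATAAA and 1 TAATTA at 41.6% GC, and the Sp8 windows ran from 40.8% to 67.2% GC. Such matches are letters only and do not show binding.

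The 9 genes were present in every library, at 53 counts (Sp8 in m57) or more. Per kilobase of annotated exon the median level was highest for Dlx1, at 9.46 CPM per kb, followed by Dlx5 at 8.07, Sox4 at 8.05, Cd24a at 8.02, Sox11 at 7.0, Dlx2 at 5.92, Igfbpl1 at 4.20, Dcx at 2.65 and Sp8 at 1.43. The ranges of neighbours in that order overlapped, and the places of Sox4 and Dlx1 carry the uncertainty of shared exon given above. Sp8 in its highest library, at 3.50 CPM per kb, lay below the lowest library of Dlx1, Dlx5, Sox4, Sox11 and Cd24a, the nearest of which was Dlx1 at 3.86.

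Among the Dlx genes, Dlx1 ranged from 20.9 CPM in m57 over a median of 51.0 to 85.6 CPM in m47, which is 4.10 times from lowest to highest. Dlx2, its neighbour on the other strand of chromosome 2, ranged from 7.88 CPM in m57 over 16.9 to 32.5 CPM in m47, or 4.12 times. Dlx5, on chromosome 6, kept to a narrow band, from 13.7 CPM in m73 over 18.3 to 22.0 CPM in m44. Dlx1 and Dlx2 shared their highest and lowest library, with a ratio of Dlx1 to Dlx2 of 1.91 to 3.58, and m61 was second for Dlx2 but at the median for Dlx1. Without m57 the ratios of highest to lowest were 2.53 for Dlx1 and 2.38 for Dlx2. Dlx5 varied by 1.61 times with another order. Sox4 ranged from 21.5 CPM in m44 over 38.6 to 74.9 CPM in m47. Sox11 ranged from 33.1 CPM in m57 over 58.1 to 98.1 CPM in m47. The ratio of Sox4 to Sox11 kept between 0.468 and 0.847.

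Dcx had an order of libraries unlike that of the Dlx genes. Its highest libraries, m47, m115, m89 and m73, were in the same order also the highest of Sp8. Dcx stood at 92.8 CPM in m47, 80.4 in m115, 75.2 in m89 and 58.0 in m73, and between 27.7 (m44) and 34.3 CPM (m57) in the other 7 libraries. In those 7 libraries Dlx1 ran from 20.9 to 74.9 CPM, and Igfbpl1 lay between 2.05 and 19.0 CPM, so that a level of Dcx near its median of 33.5 CPM went with low as well as high levels of the other members. The ratio of Dcx to Dlx1 ran from 0.438 in m49 to 1.71 in m73, or 3.91 times.

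Cd24a, Igfbpl1 and Sp8 had the largest ratios of highest to lowest library over all 11 libraries. Cd24a ranged from 10.3 CPM in m57 over 20.7 to 45.3 CPM in m47. Igfbpl1 ranged from 2.05 CPM in m57 (95% exact Poisson interval 1.60 to 2.59) over 13.7 to 20.5 CPM in m47 (18.9 to 22.1). Sp8, the least abundant, ranged from 1.53 CPM in m57 (1.15 to 2.00) over 6.50 to 16.0 CPM in m47 (14.6 to 17.4). The ratio was 9.98 for Igfbpl1 and 10.4 for Sp8, and for both genes the intervals of m57 and m47 lay far apart. The intervals cover counting error only, and may be too narrow for that, since PCR copies are not independent molecules. The ratios rest on m57, without which the ratio was 3.77 for Igfbpl1, 5.31 for Sp8 and 3.14 for Cd24a, the last below the 3.49 of Sox4 and 3.35 of Dcx. In bulk tissue, fewer neuroblasts and less RNA of these genes per cell cannot be told apart.

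**Figure D1:**
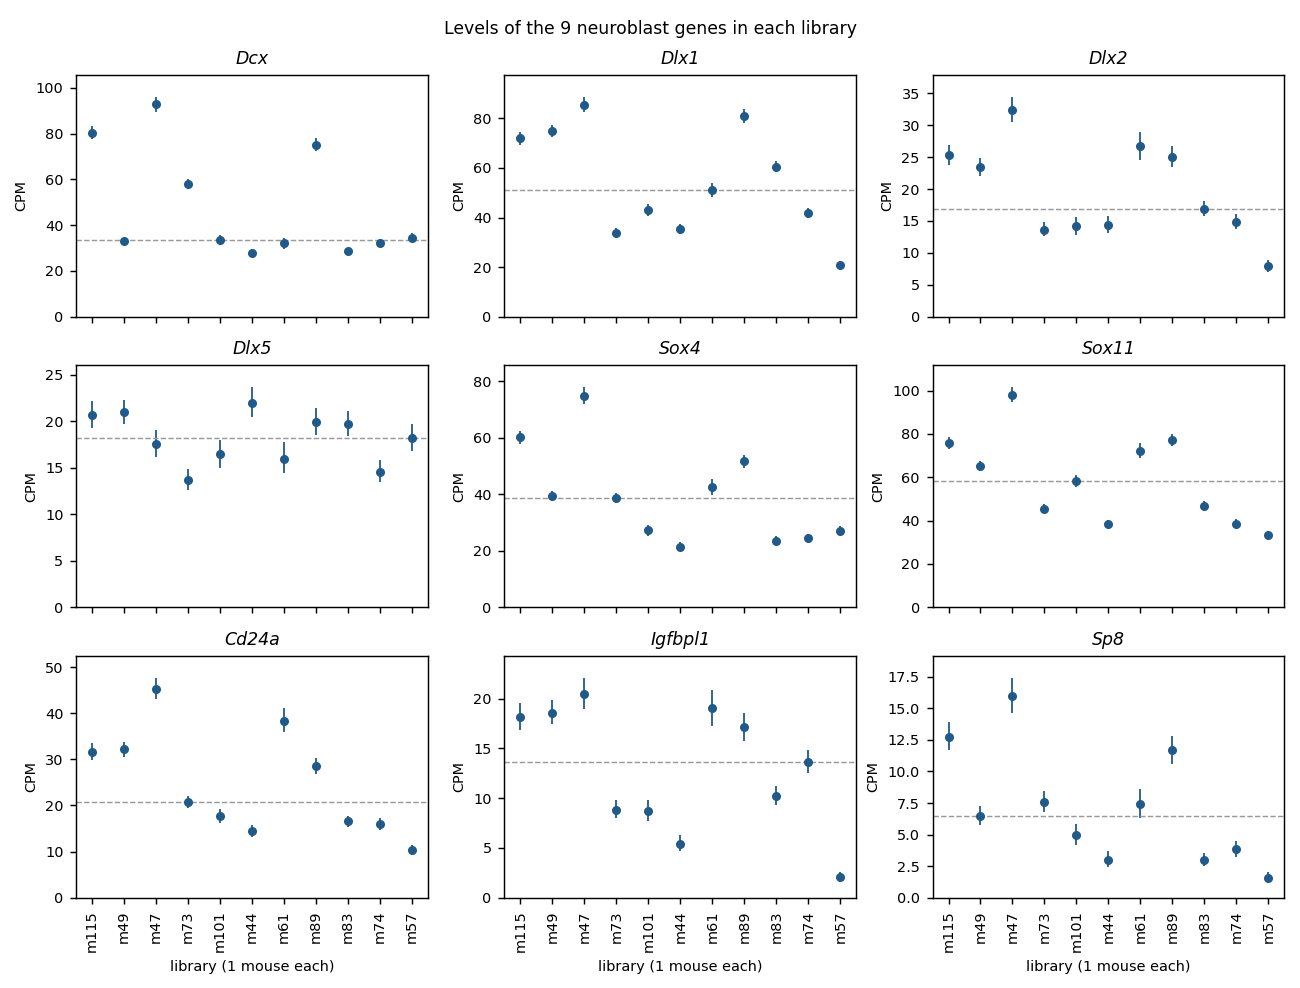
Level of each member (vertical axis, CPM, from 0) in each of the 11 libraries (horizontal axis, 1 mouse each); bars are 95% exact Poisson intervals of the count and the dashed line is the median. m47 is highest for 8 of 9 members, m57 is lowest for 6, and Dlx5 keeps between 13.7 and 22.0 CPM.

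The libraries ranked alike for most members. m47 was the highest library for 8 of 9 members and m57 the lowest for 6. m115 was among the 4 highest for all 9, m89 for 7, m61 for 5 and m49 for 4. The members' score of a library, the mean over the 9 genes of log2(CPM + 0.5) centred on the median of each gene, was 0.85 in m47, 0.60 in m115, 0.54 in m89, 0.27 in m49 and 0.26 in m61. It was negative in the other 6 libraries, from −0.14 in m73 to −0.98 in m57.

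The spread between libraries, the biological coefficient of variation from edgeR, had a median of 0.415 over the 9 members and 0.201 over all genes tested. It was 0.654 for Sp8, 0.584 for Igfbpl1, 0.465 for Dcx and 0.449 for Cd24a, which lay in the top 10% of genes from 0.435 upward. These are 4 of 9 members, beside a background of 10.0% of genes. Dlx1 (0.415), Sox4 (0.414), Dlx2 (0.391) and Sox11 (0.345) lay below that bound and above the median of all genes. Dlx5, at 0.149, varied less than the median gene.

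Over the 36 pairs of members, log2 levels correlated most closely for Dlx2 with Cd24a (Pearson r 0.95, Spearman rho 0.83, 11 libraries), Sox11 with Cd24a (r 0.94, rho 0.89), Dlx2 with Igfbpl1 (r 0.92, rho 0.93), and Dlx1 with Dlx2 (r 0.92, rho 0.85). Sox4 went with Sp8 (r 0.91, rho 0.91). Dcx went with Sox4 (r 0.88, rho 0.80) and Sp8 (r 0.83, rho 0.74), and less closely with Dlx1 (r 0.51, rho 0.40) and Igfbpl1 (r 0.44, rho 0.33). Dlx5 had an r of −0.03 to 0.35 with every other member. These are descriptions over libraries that share tissue, depth and scaling, and no test was made of them.

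**Figure D2:**
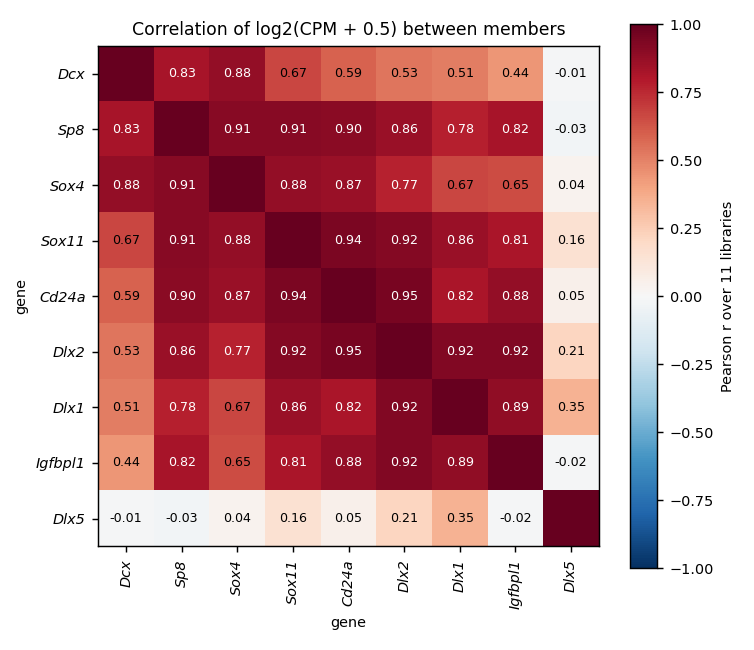
Pearson r of log2(CPM + 0.5) over the 11 libraries for each pair of the 9 members (both axes), coloured from −1 to 1. Dlx5 stands apart with r up to 0.35, while Dlx2, Cd24a, Sox11 and Sp8 have r of at least 0.86 with one another.

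Which genes went with the members was next described over all genes tested. Outside the members, the highest r with the members' score was found for Rnd3 (0.97), Insm1 (0.97), a zinc finger factor of neuronal progenitors, Ccnd2 (0.96), a cyclin, Nrep (0.93), Hmgb2 (0.93), Cdca7 (0.92) and Cenpf (0.92), the last 3 genes of dividing cells. Mob3b, 2700081O15Rik, Sgo1, Mex3a and Sfrp1 followed at 0.90 to 0.91. The lowest values were those of Fam20a (−0.89), Cpne7 (−0.88), Cpne6 and Slc22a8 (−0.85 each), I830077J02Rik (−0.84) and Mpp3 (−0.82). The median r over all genes was −0.03, with 46.5% of genes positive.

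With the other members left out of the ranking, the genes nearest to each member differed. Dlx1 was then most like Hmgb2 and Mki67, and Dlx2 most like Pclaf and Hmgb2, all of them genes of dividing cells. Igfbpl1 was most like Ube2c and Cdca7, also of the cell cycle, and Cd24a was close to Sgo1. In m57, their lowest library, Ube2c stood at 0.116 CPM and Pclaf and Sgo1 at 0.231 CPM each, which is few counts. Outside the members, Sox4, Sox11 and Sp8 were each most like Insm1, with r of 0.96, 0.93 and 0.97. Dcx was most like Tmpo (0.96) and Zfp229 (0.95), and Dlx5 like Zic4 (0.89) and Bmp7 (0.88). With members kept in, Cd24a ranked first for Dlx2 and Dlx2 for Cd24a, and Cd24a first for Sox11. Among the 15372 genes then ranked for likeness to Sp8, 7 of the other 8 members were in the first 100, against 1 for Dcx and 0 for Dlx5.

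Other genes of the lineage went with the members to different degrees. All 15 genes of a list of dividing cells had a positive r with the members' score, with a median of 0.84. Hmgb2 and Cenpf led this list, and Pcna, its most abundant gene, had the lowest r at 0.40. Of 10 genes of stem cells and progenitors, 8 had a positive r, with a median of 0.57. Gsx2, a homeobox gene of the lateral ganglionic eminence lineage, had 0.81 and Thbs4, a gene of subventricular zone astrocytes, had 0.76. Hes5 (−0.22) and Fabp7 (−0.21) were negative. Of 20 further genes of neuroblasts 17 had a positive r, with a median of 0.41. Ccnd2 and Nrep led, whereas Tubb3 (−0.14) and Stmn2 (−0.05), which mature neurons express at high levels, did not follow. Dlx6, the neighbour of Dlx5, had an r of −0.03.

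Of 12 ependymal cilia genes 10 passed the filter and all 10 were positive, with a median r of 0.54, above that of the further neuroblast genes and close to that of the stem cell and progenitor genes. The other lists had lower medians. Of 14 projection neuron genes 2 were positive (median −0.30), of 9 interneuron genes 0 (median −0.40), of 8 genes of oligodendrocyte precursors 1 (median −0.42), of 6 astrocyte genes 4 (median 0.09) and of 6 cortical genes 4 (median 0.09). Of 6 genes of the septum 3 were positive (median 0.15), led by Zic1 (0.68), and of 3 choroid plexus genes that passed the filter 2 (median 0.22), led by Otx2 (0.75). Of 5 microglia genes 1 was positive (median −0.29) and of 5 vessel genes 2 (median −0.25). Sst (−0.62) and Npy (−0.63), peptides of striatal interneurons, and Olig1 (−0.62) were the furthest below 0 in their lists. The mean level of the projection neuron list fell into separate clusters of libraries, as did its genes Rgs9, Pdyn and Adora2a. The r values of that list also hold this split between libraries. The part of other cells in the members' levels was not tested.

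The dividing-cell score, the mean centred log2 level of 15 cell-cycle genes, was tested as a covariate of every gene with edgeR's quasi-likelihood test and Benjamini-Hochberg adjustment. It was highest in m47 (0.85), m89 (0.68) and m115 (0.64) and lowest in m57 (−1.28). Of the 9 members 3 increased with it past an adjusted p of 0.05 and none decreased, beside 0.163% of all genes that increased. The slope, in log2 units of the gene per log2 unit of the score, was 0.94 ± 0.11 (SE) for Dlx1 (adjusted p = 0.000942), 0.88 ± 0.11 for Dlx2 (adjusted p = 0.00284) and 1.33 ± 0.22 for Igfbpl1 (adjusted p = 0.0228). For Dlx1 r was 0.96 (permutation p = 2e-05, adjusted 0.022) and rho 0.95 (p = 3e-05, adjusted 0.0512), and r was 0.91 without m57 and m47, the libraries farthest from the median score. For Dlx2 r was 0.95 (permutation p = 2e-05, adjusted 0.022) and rho 0.94 (p = 0.0001, adjusted 0.0854), with r at 0.89 without those libraries. For Igfbpl1 r was 0.91 (permutation p = 0.00013, adjusted 0.0869) and rho 0.86 (p = 0.00112, adjusted 0.43), with r at 0.82 without them.

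The other members did not pass that threshold. The slope was 0.88 ± 0.17 for Cd24a (adjusted p = 0.0718), 0.65 ± 0.13 for Sox11 (0.0878), 1.22 ± 0.27 for Sp8 (0.145), 0.65 ± 0.17 for Sox4 (0.362), 0.60 ± 0.21 for Dcx (adjusted p = 1) and 0.10 ± 0.12 for Dlx5 (adjusted p = 1), by the same edgeR test. Whether the slope of Dlx1 differs from that of Dcx was not tested. m73 showed the contrast between them, with the fourth highest Dcx and, at a score of −0.61, the second lowest Dlx1. Of the 25 genes called, 5 belong to the 15 that make up the score, so their calls are not independent of it. They also count in the 0.163% of all genes given above. Those called outside the list included further genes of dividing cells, such as Cdca7 and Pclaf. Rnd3, Mex3a, Sfrp1, Nrep, Ccnd2 and Draxin were also called and were in no list of dividing cells.

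Leaving out libraries changed the calls more than the slopes. Without m57 Dlx1 was the 1 member past the threshold. Dlx2 then had a slope of 0.82 (adjusted p = 0.0619), and Igfbpl1 of 1.00 (0.198). Without m49 or m47 the call of Igfbpl1 was lost at slopes of 1.31 and 1.43 (0.0553 and 0.0597). Without m115, m49 and m47, the libraries of highest Foxj1, none of the members passed, at slopes of 0.95 for Dlx1 (adjusted p = 0.12), 0.88 for Dlx2 (0.346) and 1.52 for Igfbpl1 (0.468).

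**Figure D3:**
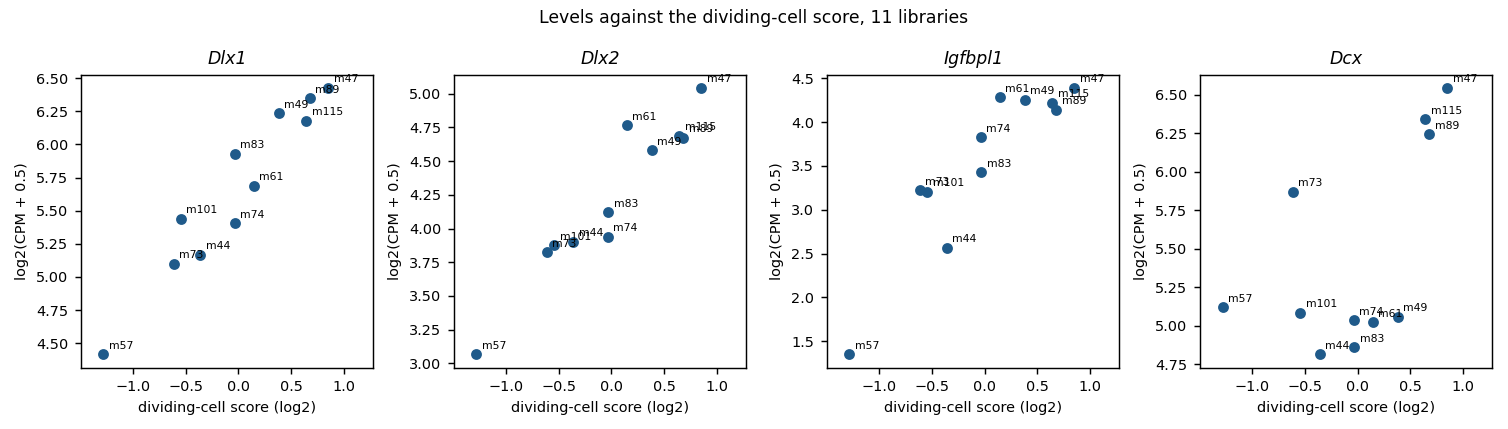
Levels of Dlx1, Dlx2, Igfbpl1 and Dcx (vertical axes, log2(CPM + 0.5)) against the dividing-cell score (horizontal axes, log2 units), 1 point per library. Dlx1 and Dlx2 follow the score with r of 0.96 and 0.95, while Dcx (r 0.58) is high in m73 at a score of −0.61.

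Dcx itself was then taken as the covariate, to ask which of the other members go with the usual neuroblast marker. Of 8 members tested 2 increased with it, beside 3.99% of all genes that increased and 1.83% that decreased. Sox4 had a slope of 0.79 ± 0.13 (adjusted p = 0.0298 in edgeR's quasi-likelihood test) and Sp8 of 1.19 ± 0.23 (adjusted p = 0.0405). For Sox4 r was 0.88 (permutation p = 0.00029, adjusted 0.0818) and rho 0.80 (p = 0.00455, adjusted 0.0481), and for Sp8 r was 0.83 (p = 0.00187, adjusted 0.0976) and rho 0.74 (p = 0.0127, adjusted 0.0667). Without m47 and m115 the r was 0.74 and 0.68. Sox11 had a slope of 0.50 ± 0.16 (edgeR adjusted p = 0.0599), and Dlx1, Dlx2, Cd24a, Igfbpl1 and Dlx5 had adjusted p values of 0.119 to 0.975. Of the 20 further neuroblast genes 5 increased with Dcx, namely Sp9, Prokr2, St8sia4, Ccnd2 and Elavl4, beside the same 3.99% of all genes. Prokr2, the receptor for a peptide that attracts migrating neuroblasts, had a slope of 0.88 ± 0.17, and St8sia4, an enzyme that makes polysialic acid, of 0.87 ± 0.15.

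Both calls were lost in several of the fits that left out a library, at slopes of about the same size. Without m115, m47, m44, m83 or m74 in turn, neither Sox4 nor Sp8 passed the threshold, and without m49 or m73 Sp8 alone did not. Over all 11 such fits the slope of Sox4 was 0.71 to 0.87 and that of Sp8 1.102 to 1.31. With a measure of transcript length as a second term the count of all genes called went from 895 to 0. The slopes were then larger, at 0.98 for Sox4 (adjusted p = 0.416) and 1.92 for Sp8 (0.253).

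The length measure compares how far long and short transcripts lie from their usual level in a library. It is the median centred log2 level of genes with 9.81 kb of exon or more, the longest 10%, minus that of genes with 1.66 kb or less, the shortest 10%. It ran from −0.64 in m61 to 0.43 in m115 and m57. Dcx, with 12.6 kb of exon, is 1 of the 1536 genes in the longest class, and the other 8 members lie between the classes. Dcx increased with it, at a slope of 1.35 ± 0.31 (adjusted p = 0.00461 in edgeR's quasi-likelihood test). Its r was 0.72 (permutation p = 0.0169, adjusted 0.0529), its rho 0.74 (p = 0.0127, adjusted 0.0513), and r was 0.90 without the 2 libraries farthest from the median. That is 1 of 9 members, beside 18.0% of all genes that increased and 14.9% that decreased, a share no higher than the background. Sox4 (slope 0.83 ± 0.35, adjusted p = 0.0836) and Sp8 (adjusted p = 0.165) did not pass, and the other 6 members had adjusted p values of 0.543 to 0.908. Without the same 2 libraries, m61 and m57, r was 0.89 for Sp8, 0.87 for Sox4 and 0.74 for Cd24a. It was then 0.69 for Sox11, 0.62 for Dlx2, 0.41 for Igfbpl1, 0.39 for Dlx1 and 0.11 for Dlx5. Of the 20 further neuroblast genes 4 increased with the length measure and 1 decreased. Among those called with Dcx, St8sia4 (slope 1.45 ± 0.27, adjusted p = 0.00115 in the same edgeR test), Sp9 (0.0456) and Elavl4 (0.0461) also increased with it. Prokr2 (0.137) and Ccnd2 (0.247) did not pass. The part of length in the levels of Dcx and these genes was not tested apart from these fits.

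**Figure D4:**
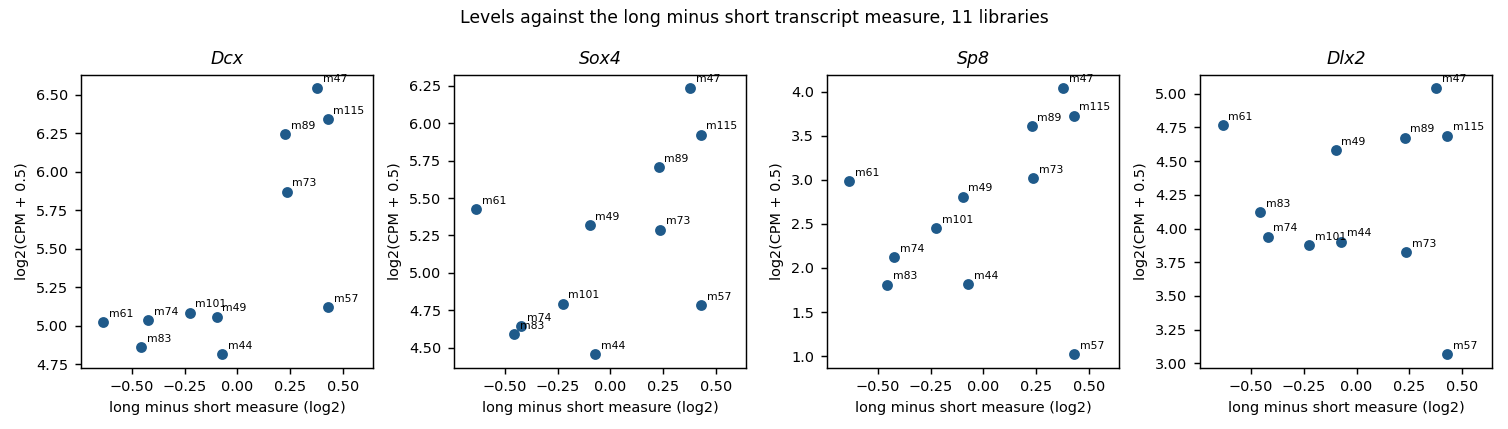
Levels of Dcx, Sox4, Sp8 and Dlx2 (vertical axes, log2(CPM + 0.5)) against the long minus short transcript measure (horizontal axes, log2 units), 1 point per library. Over all 11 libraries r is 0.72 for Dcx and −0.04 for Dlx2. Without m61 and m57 it is 0.90 for Dcx and 0.62 for Dlx2.

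Ependymal cells line the ventricle beside the subventricular zone, and their motile cilia genes gave the last covariate. The cilia score was high in m115 (1.47), m47 (1.16) and m49 (0.66) and lowest in m89 (−0.41). No member passed the threshold with it, beside 0.0520% of genes, 8 in all, that increased. All 9 slopes were positive, from 0.15 ± 0.11 for Dlx5 to 0.62 ± 0.32 for Sp8, each at an adjusted p of 0.958 in edgeR's quasi-likelihood test. Before adjustment 717 of 15373 genes had a p under 0.05, a share below 0.05 itself. Dlx1, Dlx2, Sox4, Sox11 and Cd24a were among them, at 0.0217 to 0.0458 in that test. Dcx, Sp8, Igfbpl1 and Dlx5 were not, at 0.07 to 0.189. DESeq2 called 31 genes and no member. m89 had Foxj1, the regulator of motile cilia, at 3.57 CPM against 16.7 in m115 and 14.4 in m47. The members' score of m89, 0.54, was near the 0.60 of m115. m49, with Foxj1 at 8.08 CPM, had a members' score of 0.27 and was among the 4 highest libraries for 4 of 9 members. Dlx1 stood in m49 at 74.9 CPM, above its median, and Dcx at 32.8 CPM, below its median. Without m115, m49 and m47 the slopes of 7 members on the cilia score were negative. Ttr, the most abundant transcript of the choroid plexus, was at 0 to 0.224 CPM.

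**Figure D5:**
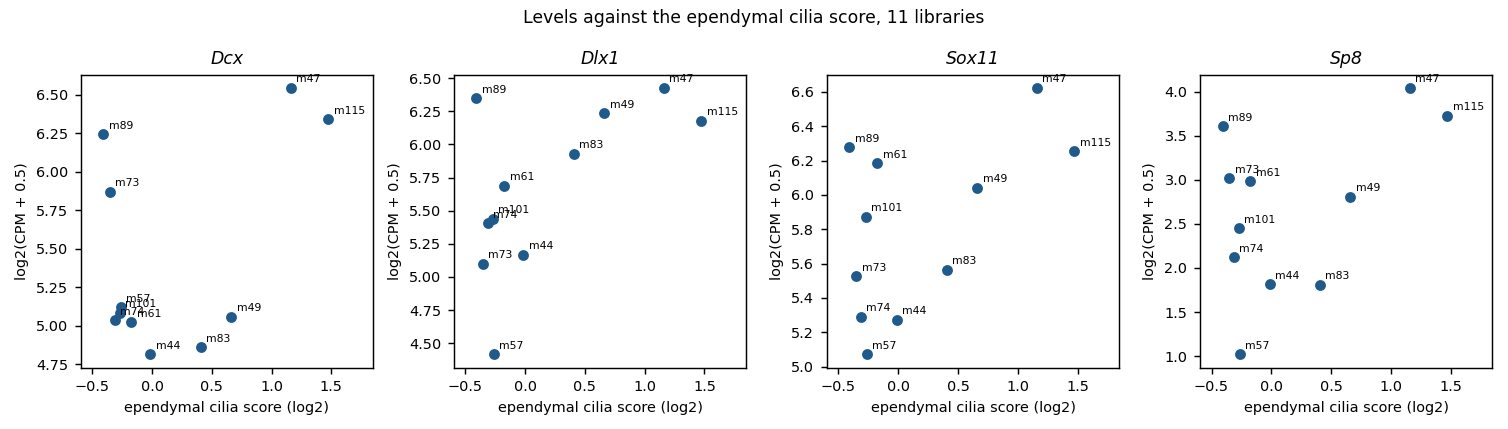
Levels of Dcx, Dlx1, Sox11 and Sp8 (vertical axes, log2(CPM + 0.5)) against the ependymal cilia score (horizontal axes, log2 units), 1 point per library. m115 and m47 are high on both axes, and m89 has the lowest cilia score, −0.41, with high levels of all 4 genes.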

How the data were processed

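RNA was sequenced from 11 libraries of 1 mouse each, each from a punch of 300 µm frozen sections. The stranded TruSeq mRNA libraries took 200 ng of RNA and 12 cycles of PCR, per the labels' protocols. The authors deposited raw read counts per gene. Per the submitters' processing notes, the tools were HTSeq 0.6.1, TopHat2 2.0.14, Bowtie2 2.1.0 and bcl2fastq 2.17.1.14, with mm10. Neither the strand setting nor the annotation release was given in the sources used here. Names, coordinates and lengths come from GENCODE M21, which matched 52403 of 52550 identifiers.

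CPM used library totals multiplied by TMM factors (0.908 to 1.06) from edgeR 4.0.16 under R 4.3.3, so that 3 counts equal 0.0619 to 0.133 CPM. Tested genes had 1 CPM or more in 3 libraries and a median of 10 counts or more. Each covariate's slope was fitted to all of them with edgeR's quasi-likelihood test and Benjamini-Hochberg adjustment at 0.05. Pearson and Spearman permutation p values are two-sided, from 100000 permutations (smallest 1e-05), and adjusted over all genes tested. Spread was fitted with an intercept only, without sharing between genes. Values were called separate clusters when a gap exceeded 0.5 of the range with 2 or more libraries on each side. On simulated data for the cilia score over 15373 genes, 80% of genes with a slope of 1 and 47% with a slope of 0.6 were recovered, against 0.0527% of unchanged genes. These slopes were given to genes drawn at random, each with its own spread. The median spread was 0.201 over all genes and 0.415 over the members, so these shares do not hold for genes as variable as the members. DESeq2 1.42.0, other size factors, filters, a pseudocount of 2 and leaving out libraries were alternatives. Other steps used scipy 1.17.1, pandas 2.3.3, numpy 2.4.6 and matplotlib 3.10.9 in Python 3.11.15.

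The members, lists and tests were chosen with earlier results of these data known. Named genes are the members, the genes most and least like the members' score, the 2 most like each member, the most abundant and the highest and lowest correlated genes of each list, and antisense partners. Draxin, Slc17a7, Ttr, Sp9, Prokr2, St8sia4, Elavl4, Dlx6 and Foxj1's values in single libraries were added after values were seen. No sequencing batch is labelled, so no relation was computed within batches. The tests took the 11 libraries as exchangeable, with no term for library code. Some genes that this rule names are not reported here.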

Additional observations from a re-analysis of the deposited data

How the results depend on the processing

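No paired analysis was possible because the labels give no groups. The projection neuron score fell into separate clusters of libraries, so it was not fitted as a covariate and alternatives for it were not run. Only the r of its single genes with the members' score was given. The clusters followed the library codes, with negative scores in NSZR1 to NSZR7 and scores of 0.60 to 0.82 in NSZR9 to NSZR14. The lowest codes, NSZR1, NSZR2 and NSZR3, are those of m115, m49 and m47. The spread of each member and its median over members kept within 1.5 times of the reported values under every alternative run, and leaving out each library in turn gave a median spread of 0.400 to 0.438. The ratio of highest to lowest CPM kept within 1.5 times under the other 2 scalings. Without m57, chosen after seeing the data, it moved by more for Dlx1 (2.53), Dlx2 (2.38), Igfbpl1 (3.77) and Sp8 (5.31).

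The counts of calls moved more. For the Dcx level, 895 genes were called, against 542 without a filter, 2792 with DESeq2's Wald test and 0 to 3426 when each library was left out in turn (0 without m115, m47, m44 or m83, 3426 without m57). Members called with Dcx were 2, against 0 to 3 in the same series. For the dividing-cell score, 25 genes were called, against 69 with DESeq2's Wald test and 14 to 32 with each library left out, and the 3 members became 6 with DESeq2's Wald test and 1 to 4 with each library left out. Under DESeq2 the added members were Cd24a, Sox11 and Sp8. For the cilia score, 8 genes were called, against 13 on unscaled totals, 24 without a filter, 31 with DESeq2's Wald test, 4 with a pseudocount of 2 and 1 to 7 with each library left out, and no member in any of these. For the length measure, 5054 genes were called, and 1 to 3 members with each library left out.

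Chosen after seeing the data, leaving out m115, m49 and m47 gave 0 genes and 0 members for Dcx, 0 genes for the cilia score, 2 genes and 0 members for the dividing-cell score, and 2882 genes and 0 members for the length measure; that leaves 8 libraries. The length measure as a second term, also chosen after seeing the data, gave 0 genes and 0 members for Dcx. The cause of the other changes was not tested. Slopes that changed sign without those 3 libraries were, on the cilia score, −1.09 for Dcx, −0.16 for Dlx2, −0.93 for Sox4, −0.43 for Sox11, −0.71 for Cd24a, −0.63 for Igfbpl1 and −1.79 for Sp8, and on the length measure −0.37 for Dlx1, −0.59 for Dlx2, −0.24 for Sox11 and −0.55 for Cd24a. On unscaled totals the slope was 0.0453 for Dlx5 on Dcx and 0.0157 for Igfbpl1 on the length measure. With each library left out, the slope on the length measure ran from −0.0092 to 0.563 for Dlx1, −0.19 to 0.49 for Dlx2, −0.17 to 0.85 for Cd24a and −0.39 to 0.30 for Igfbpl1, and that of Dlx5 on Dcx from −0.0646 to 0.0543. Depth limits little here, since the lowest count of a member was 53.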
